A study of Mus musculus with 6 samples.

Results

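The genes of the mitochondrial protein import machinery were followed in mouse pre-B cells transformed by BCR-ABL1, the fusion kinase of Philadelphia chromosome-positive leukaemia. They were taken by symbol: the numbered Timm and Tomm genes, Pmpca, Pmpcb, Samm50, Grpel1, Grpel2 and Mtx1 to Mtx3. A gene was kept where a probe named it alone, and its brightest probe represented it. This gave 32 import genes of 19938 measured genes. One further probe, which names Timm10b together with Dnhd1, was left out. All cells were of the FvB/N strain and carried floxed Spry1 and Spry2 alleles (both encode Sprouty proteins, feedback inhibitors of receptor tyrosine kinase signalling). The control group (3 arrays) was transduced with the vector PMIP-ERT2, which lacks the recombinase. The Cre-ERT2 group (3 arrays) was transduced with PMIP-CRE-ERT2, which encodes Cre fused to a tamoxifen-responsive receptor domain. Puromycin-resistant cells of both groups were given 0.5 µM 4-hydroxytamoxifen for 2 days before RNA was taken. No group had Cre without floxed alleles, so deletion of Spry1 and Spry2 cannot be told apart from Cre activity itself.

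Most mitochondrial proteins are encoded in the nucleus, made in the cytosol and imported. The TOM complex is the common entry gate of the outer membrane, and the SAM complex inserts barrel-shaped proteins into that membrane. Precursors with a cleavable presequence pass through the TIM23 complex of the inner membrane, are pulled into the matrix by an ATP-driven motor and are cut by the mitochondrial processing peptidase. Carrier proteins are instead escorted by small TIM chaperones to the TIM22 complex. Transformed B cells depend on this supply for their respiratory chain and metabolite carriers.

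The labels were checked first. On the log2 scale, Spry1 was at 9.04, 9.25 and 9.11 in control 1, 2 and 3 and at 8.35, 8.41 and 8.11 in Cre-ERT2 1, 2 and 3. Spry2 was at 8.57, 8.37 and 8.33 in control and at 7.29, 7.27 and 7.51 in Cre-ERT2 arrays. Neither gene's groups overlapped (exact two-sided permutation p = 0.1 in both cases, the minimum for groups of 3). All 11 measured B lineage markers, such as Cd79a and Igll1, lay above the array median on every array. By limma 0 of these 11 were called higher and 1 was called lower, Rag2 of the V(D)J recombinase (-0.68 ± 0.05 SE, adjusted p = 0.00162). Rag1, its partner, was at -0.31 ± 0.10 (SE), with groups that did not overlap (adjusted p = 0.138). These markers were named after their values were seen. The mean of 12 mast cell markers ranged from 7.54 to 8.04 in control and from 8.27 to 9.30 in Cre-ERT2 arrays. All 12 had positive fold changes, 3 passed the threshold, and none lay below the lower quartile on every array. Means of 8 neutrophil and monocyte, 5 T cell and 2 erythroid markers differed between groups by less than 0.05. Single markers went both ways, with positive fold changes for 4, 3 and 1 of them. They ranged from -0.22 (Cd4) to 0.21 (Itgam), and the groups did not overlap for either of these. By limma 0 of the markers in these lists passed the threshold. Array medians lay between 7.73 and 7.81, highest in control 1, which also had the lowest array weight (0.322, against 0.662 to 2.36 for the others).

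Most import genes had small negative fold changes in Cre-ERT2 cells, and 2 of the 32 passed the test. The median log2 fold change of the 32 genes was -0.13 (quartiles -0.22 and -0.09), against -0.03 over all genes and -0.04 over the 11963 genes at or above the 40th percentile of mean signal. Fold changes were negative for 29 of the 32 genes (30 with arrays centred on their medians, 27 after a repeated quantile normalization), as they were for 63.1% of all genes. Timm21, of the TIM23 complex, and Timm8a1, a small TIM chaperone gene, fell at an adjusted p under 0.05, the threshold used throughout. This made 2 of 32, where 1.12% of all genes were called lower. No import gene was called higher by limma (0.797% of all genes were), and 0 were higher at an unadjusted p under 0.05. At that unadjusted threshold 12 import genes were lower, where 12.8% of all genes were. Of the 32 import genes, 30 lie among the 11963 genes at or above the 40th percentile. Of those 11963 genes, 213 were called lower and 2127 were lower at the unadjusted threshold.

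The largest fall, of Timm21, left 76.9% of the control signal, a log2 difference of -0.38. Every Cre-ERT2 array lay below every control array for 17 of the 32 genes, which was the case for 18.2% of all genes. The opposite arrangement was found for 0 import genes and for 6.59% of all genes. Among the 11963 genes at or above the 40th percentile, 2963 had every Cre-ERT2 array below every control array and 1037 the opposite. In these bulk samples, fewer cells of a type and less RNA per cell cannot be told apart. The mast cell marker mean, given above, was 0.97 higher in Cre-ERT2 arrays. With that mean as a covariate, the median of the import genes was -0.14 (all genes -0.06) and 0 passed. In that fit 0.266% of all genes were called lower, against 1.12% without the covariate. The marker mean separated the groups completely, so this fit can hardly tell group from covariate, and the lost calls decide nothing about mast cells.

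**Figure D1:**
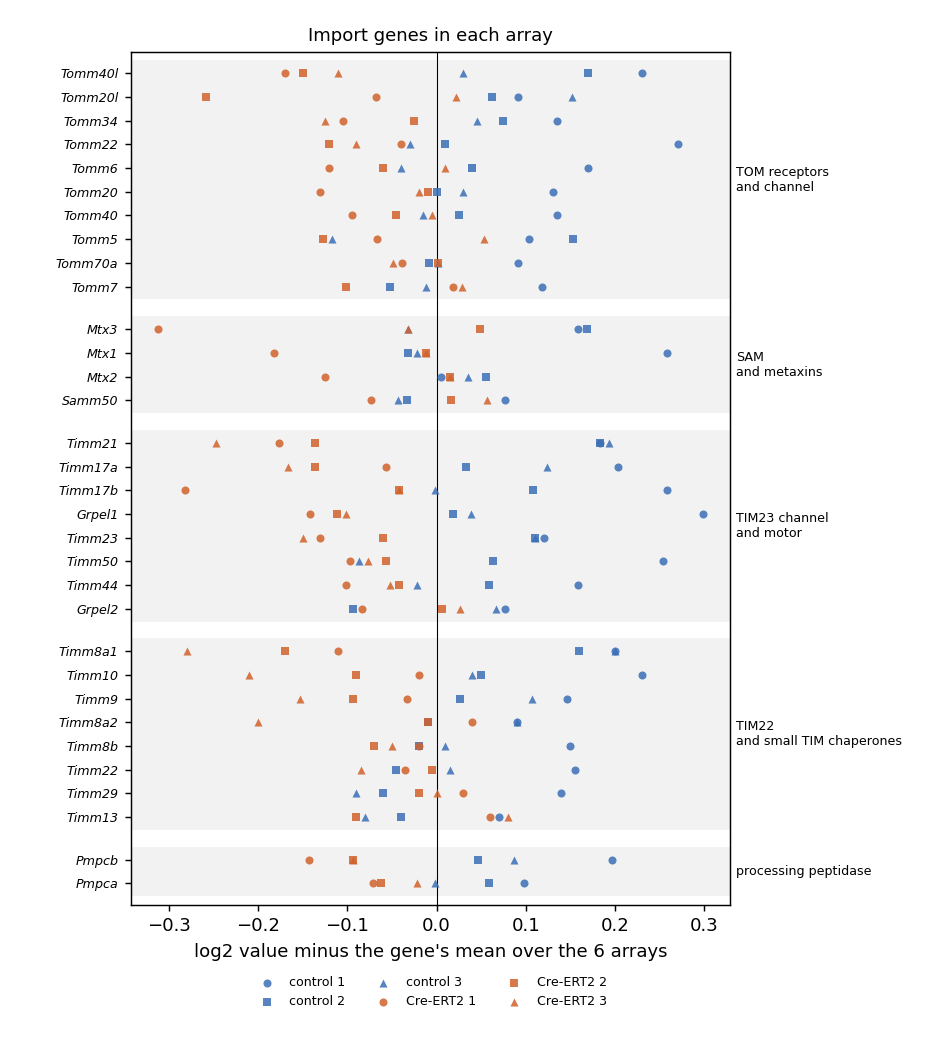
Each row is 1 import gene and each point 1 array, plotted as the log2 value minus that gene's mean over the 6 arrays, with control arrays in blue, Cre-ERT2 arrays in orange and the replicate number as the marker shape. Control 1 was the highest array for 25 of the 32 genes, and Timm21 and Timm8a1 show the widest gaps between the groups.

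Control 1 stood apart from the other control arrays for these genes. Averaged over the 32 genes, the deviation from each gene's own mean was 0.16 in control 1, 0.04 in control 2 and 0.02 in control 3. It was -0.09, -0.07 and -0.06 in Cre-ERT2 1, 2 and 3. All 3 control arrays were thus above all 3 Cre-ERT2 arrays. The median deviation of genes at or above the 40th percentile was also highest in control 1 (0.08), and lay between -0.03 and -0.003 in the other arrays. The lowest array of a gene was Cre-ERT2 1 for 14 genes, Cre-ERT2 3 for 10 and Cre-ERT2 2 for 6. Without control 1 the median fold change of the import genes was -0.08 (all genes -0.01), 27 were negative, and Timm21 alone passed. In that fit 0.316% of all genes were called lower, against 1.12% with every array.

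**Figure D2:**
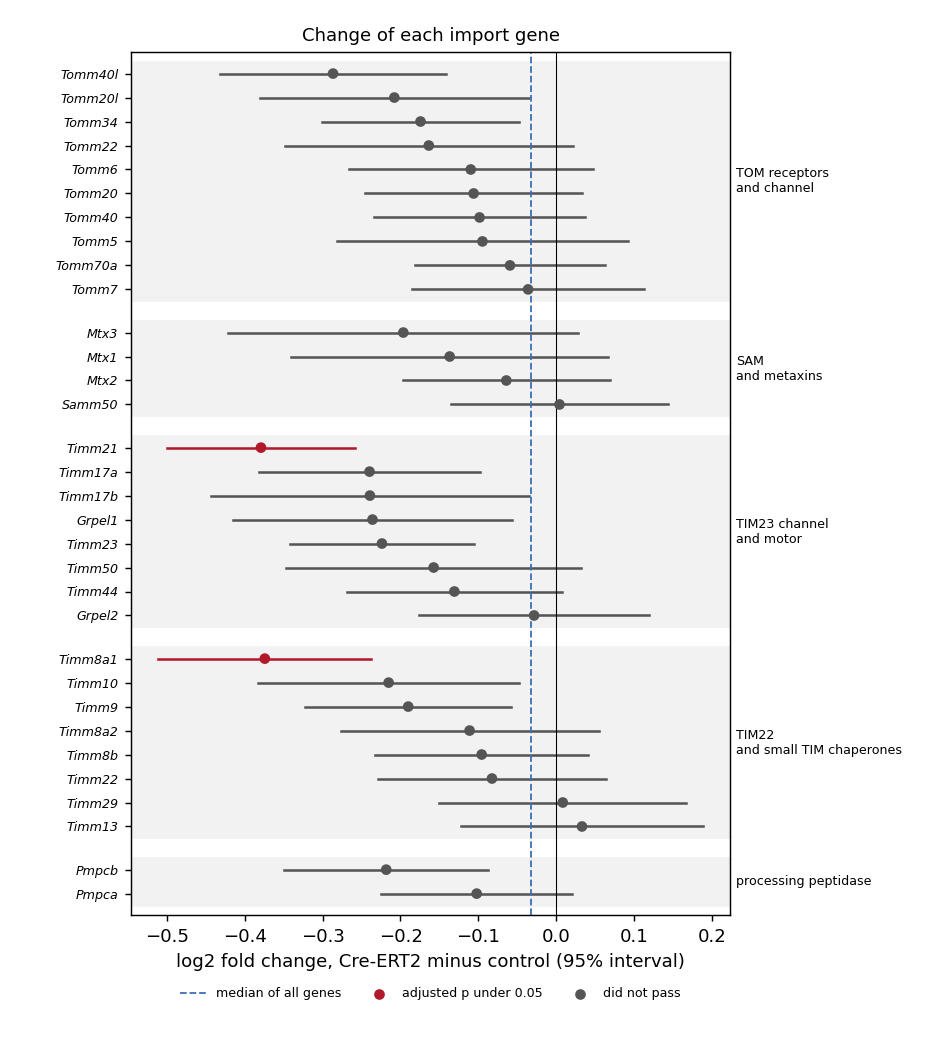
Log2 fold change of each import gene (Cre-ERT2 minus control, points) with its 95% interval (lines), grouped by role, with the 2 genes past the threshold in red and the median of all genes as a dashed line. All 8 genes of the TIM23 group and all 10 of the TOM group lie left of 0, while Samm50, Timm29 and Timm13 lie at or just right of it.

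The TIM23 channel and its motor held the lowest group median. All 8 genes had negative fold changes (median -0.23), 1 was called lower, and 6 had every Cre-ERT2 array below every control array. Over all genes these shares were 63.1%, 1.12% and 18.2%. Timm21 encodes a subunit that links TIM23 to the TOM complex and to the respiratory chain. Its log2 values were 10.98, 10.98 and 10.99 in control and 10.62, 10.66 and 10.55 in Cre-ERT2 arrays. The control arrays were nearly equal, and the lowest of them exceeded the highest Cre-ERT2 array by 0.33. Timm21 fell from 10.99 ± 0.0061 to 10.61 ± 0.055 (SD, n = 3 each), a log2 fold change of -0.38 ± 0.05 (SE, 95% interval -0.50 to -0.26, limma adjusted p = 0.016). Its fold change stayed between -0.40 and -0.35 when any 1 array was left out. Omitting control 2 (adjusted p = 0.0656) or control 3 (0.0855) ended the call, as did omitting Cre-ERT2 1 (0.051) or Cre-ERT2 3 (0.114). In those fits 0.0903% to 0.196% of all genes were called lower, against 1.12% with every array. Timm21 was at -0.36 in the fit that held the mast cell marker mean (adjusted p = 0.231).

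Timm23, the channel-forming subunit itself, was at 13.26, 13.25 and 13.25 in control and at 13.01, 13.08 and 12.99 in Cre-ERT2 arrays. The groups were apart by 0.16 at their nearest arrays. Its log2 fold change was -0.22 ± 0.05 (SE), which did not pass (limma adjusted p = 0.0651). It passed in fits without dim genes (adjusted p = 0.0277), with median-centred arrays (0.0409), with an intensity trend (0.00394) and with array weights (0.0166). Timm23 had 4 single-gene probes with fold changes of -0.22 each. The 2 brightest held identical values on every array, so these probes are not independent measurements, and signal from near-identical copies of the gene was not tested.

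The paralogues Timm17a and Timm17b, which form the channel together with Timm23, differed in their spread. Timm17a was at 11.87, 11.70 and 11.79 in control and at 11.61, 11.53 and 11.50 in Cre-ERT2 arrays (fold change -0.24 ± 0.06 SE, limma adjusted p = 0.0856). A second Timm17a probe gave -0.21. Timm17b had the same fold change (-0.24 ± 0.09 SE, adjusted p = 0.2), and Cre-ERT2 1, at 10.60, was well below the other two Cre-ERT2 arrays, both at 10.84. Timm50, the presequence receptor of the complex, was at 10.97 in control 1 and between 10.62 and 10.78 in the other 5 arrays, so its groups overlapped (-0.16 ± 0.08 SE).

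The motor genes differed less evenly. Grpel1, a nucleotide exchange factor of the matrix HSP70 that drives import, was at 11.30, 11.02 and 11.04 in control and at 10.86, 10.89 and 10.90 in Cre-ERT2 arrays. The groups did not overlap, but control 1 was far above the other controls, and the fold change of -0.24 ± 0.08 (SE) did not pass (limma adjusted p = 0.152). Timm44, which anchors that HSP70 at the channel, had a fold change of -0.13 ± 0.06 (SE). Grpel2, a second exchange factor, had overlapping groups and a fold change of -0.03 ± 0.07 (SE), which was 0.01 after a repeated quantile normalization. The difference between the 2 exchange factors was not tested.

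Among the 8 genes of TIM22 and the small TIM chaperones, 1 was called lower, 6 had negative fold changes and the median was -0.10. Over all genes 1.12% were called lower and 63.1% were negative. Timm8a1 encodes an intermembrane space chaperone whose human counterpart is mutated in deafness-dystonia syndrome. It was at 10.30, 10.26 and 10.30 in control and at 9.99, 9.93 and 9.82 in Cre-ERT2 arrays. The nearest arrays of the groups were 0.27 apart. Timm8a1 fell from 10.29 ± 0.02 to 9.91 ± 0.09 (SD, n = 3 each), a log2 fold change of -0.37 ± 0.06 (SE, 95% interval -0.51 to -0.24, limma adjusted p = 0.0272), leaving 77.2% of the control signal. A dimmer Timm8a1 probe gave -0.41 ± 0.06 (adjusted p = 0.0193 when every probe was tested). The positions of the probes were not used here, so part of the signal of either probe may come from near-identical copies of Timm8a1, which was not tested. Of the fits that left out 1 array, the call held only without Cre-ERT2 1 (adjusted p = 0.0446), with fold changes from -0.41 to -0.33 and adjusted p from 0.0446 to 0.143. It was lost without any one of control 1 (0.0532), control 2 (0.0817), control 3 (0.117), Cre-ERT2 2 (0.0564) or Cre-ERT2 3 (0.143). In the fits that lost it, 0.0903% to 0.557% of all genes were called lower, against 1.12% with every array. With the mast cell covariate Timm8a1 was at -0.45 (adjusted p = 0.15).

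Timm9 and Timm10 encode the hexameric chaperone that guides carrier proteins across the intermembrane space. Timm9 was at 10.21, 10.09 and 10.17 in control and at 10.03, 9.97 and 9.91 in Cre-ERT2 arrays (fold change -0.19 ± 0.06 SE, limma adjusted p = 0.126). Timm10 was at 9.70, 9.52 and 9.51 in control and at 9.45, 9.38 and 9.26 in Cre-ERT2 arrays (-0.22 ± 0.07 SE, adjusted p = 0.163). In both genes the groups did not overlap and Cre-ERT2 3 was the lowest array, as it was for Timm8a1. Without variance moderation no import gene passed (Timm21 adjusted p = 0.105, Timm8a1 0.126). Timm9 and Timm10 did not pass under any of the 16 alternative settings.

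The rest of this branch showed smaller values. Timm8b, of the same family as Timm8a1, was at -0.10 ± 0.06 (SE), with groups just apart. Timm22, the carrier channel, was at -0.08 ± 0.06 (SE). Timm13, the partner of Timm8a1 in its chaperone complex, was at 0.03 ± 0.07 (95% interval -0.12 to 0.19), with Cre-ERT2 3 highest at 9.97 and Cre-ERT2 2 lowest at 9.80. Timm29, a TIM22 subunit, was at 0.01 ± 0.07 (95% interval -0.15 to 0.17). With the mast cell covariate these became -0.12 for Timm13 and -0.11 for Timm29. Timm8a2, a paralogue of Timm8a1, lay between 5.27 and 5.56, below the lower quartile of each array, with a fold change of -0.11 and overlapping groups.

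The 10 genes of the TOM group all had negative fold changes (-0.29 to -0.04, median -0.11). By limma 0 passed and 3 were lower at an unadjusted p under 0.05, against 1.12% called lower and 12.8% over all genes. The lowest p in the outer membrane belonged to Tomm40l, a paralogue of the pore gene Tomm40. Tomm40l was at 9.47, 9.41 and 9.27 in control and at 9.07, 9.09 and 9.13 in Cre-ERT2 arrays. The groups were 0.14 apart. Its log2 fold change was -0.29 ± 0.06 (SE, limma adjusted p = 0.06). It passed in fits without dim genes (adjusted p = 0.027), with median-centred arrays (0.0299), a repeated quantile normalization (0.0299), an intensity trend (0.0351) and array weights (0.0171). Tomm40 itself was at -0.10 ± 0.06 (SE, adjusted p = 0.44), and its groups overlapped slightly.

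Tomm34, a cytosolic cochaperone that hands precursors to the gate, was at 12.53, 12.47 and 12.44 in control and at 12.29, 12.37 and 12.27 in Cre-ERT2 arrays (fold change -0.17 ± 0.06 SE, limma adjusted p = 0.14). Its groups did not overlap. Of the receptors, Tomm22 was at 11.44 in control 1 and between 11.05 and 11.18 in the other arrays (-0.16 ± 0.08 SE). Tomm20, the presequence receptor, was at -0.11 ± 0.06 (SE), and its second probe gave -0.08. Tomm70a, the receptor for carrier proteins, was at -0.06 ± 0.05 (SE).

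The small subunits that stabilise the pore had overlapping groups. Tomm6 was at -0.11 ± 0.07, Tomm5 at -0.09 ± 0.08 and Tomm7 at -0.04 ± 0.07 (SE), and Tomm7 was at 0.01 after a repeated quantile normalization. Tomm20l, a paralogue of Tomm20 among the dimmer probes (6.86 to 7.27), was at -0.21 ± 0.08 (SE, limma adjusted p = 0.187).

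For the SAM complex and the metaxins, which act with it, the groups overlapped for all 4 genes. Over all genes every Cre-ERT2 array lay below every control array for 18.2% and above for 6.59%. With 4 genes, overlap therefore says little about this group. Samm50, the core insertase, was at 12.65, 12.54 and 12.53 in control and at 12.50, 12.59 and 12.63 in Cre-ERT2 arrays. The arrays of the groups were interleaved, and the fold change was 0.004 ± 0.06 (SE, 95% interval -0.14 to 0.14), or -0.0037 with arrays centred on their medians. Mtx1 (-0.14 ± 0.09 SE), Mtx2 (-0.06 ± 0.06) and Mtx3 (-0.20 ± 0.10) did not pass (0 of 4 at an unadjusted p under 0.05). At that threshold 12.8% of all genes were lower. For all 4 genes Cre-ERT2 1 was the lowest array, most so for Mtx3 (8.72). Without that array Mtx3 was at -0.09 and Mtx2 at -0.02, and without control 1 Mtx1 was at -0.04. With the mast cell covariate, Mtx2 was at 0.07 and Mtx3 at 0.09.

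Pmpca and Pmpcb encode the alpha and beta subunits of the processing peptidase, the latter holding the catalytic site. Pmpcb was at 11.02, 10.87 and 10.91 in control and at 10.68, 10.73 and 10.73 in Cre-ERT2 arrays. The groups were 0.14 apart. Its fold change was -0.22 ± 0.06 (SE, limma adjusted p = 0.088), and it passed in fits without dim genes (adjusted p = 0.0406), with median-centred arrays (0.0369), an intensity trend (0.0427) and array weights (0.046). Pmpca was at 11.85, 11.81 and 11.75 in control and at 11.68, 11.69 and 11.73 in Cre-ERT2 arrays. Its groups were just apart, with a fold change of -0.10 ± 0.05 (SE, adjusted p = 0.367).

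When dim genes (mean signal under the 40th percentile) were dropped, 6 of the 30 import genes left were called lower. These were Timm21, Timm8a1, Timm23, Timm17a, Tomm40l and Pmpcb. In that fit 6.61% of the 11963 genes tested were called lower, so calls rose across all genes too. The same 6 genes were called with median-centred arrays (3.47% of all genes called lower) and with array weights (5.43%). With an intensity trend Tomm34 was called as well (4.12%).

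Genes that act beside these complexes were described from a list chosen by known role. Of its 50 measured genes, 44 had negative fold changes (median -0.14), 1 was called lower and 0 higher, and 27 were lower at an unadjusted p under 0.05. Over all genes 1.12% were called lower and 0.797% higher, and 12.8% were lower at the unadjusted threshold. The called gene was Chchd4, which encodes the oxidoreductase (MIA40) that folds small TIM proteins and traps them in the intermembrane space. Chchd4 was at 10.48, 10.46 and 10.53 in control and at 10.07, 10.13 and 10.11 in Cre-ERT2 arrays. Every control array exceeded every Cre-ERT2 array by at least 0.34. Chchd4 fell by 0.39 on the log2 scale (± 0.05 SE, limma adjusted p = 0.0125). It did not pass without control 2 (adjusted p = 0.0521), control 3 (0.0725) or Cre-ERT2 3 (0.0846), or with the mast cell covariate (-0.35, adjusted p = 0.218). In those fits 0.0903% to 0.266% of all genes were called lower.

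Next by p were the peptidase genes Immp1l, of the inner membrane peptidase (-0.23 ± 0.05 SE, limma adjusted p = 0.0569), and Mipep, which trims precursors after the processing peptidase (-0.22 ± 0.05 SE, adjusted p = 0.0603). By role, medians were -0.17 for 13 peptidases, -0.17 for 12 MICOS and outer membrane partners, -0.13 for 9 motor and matrix folding genes, -0.12 for 5 inner membrane insertion genes and -0.07 for 3 genes of the disulfide relay. The 8 cytosolic chaperone genes had a median of -0.03, the same as all genes. Hspa9, the matrix HSP70 of the import motor, and Hspd1, the matrix chaperonin, named after their values were seen, were at -0.16 and -0.20 and did not pass. Of the 9 motor and matrix folding genes 8 were negative. Among the others, Hspe1 was at -0.01, Dnajc15 at -0.03 and Pam16 at 0.06.

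**Figure D3:**
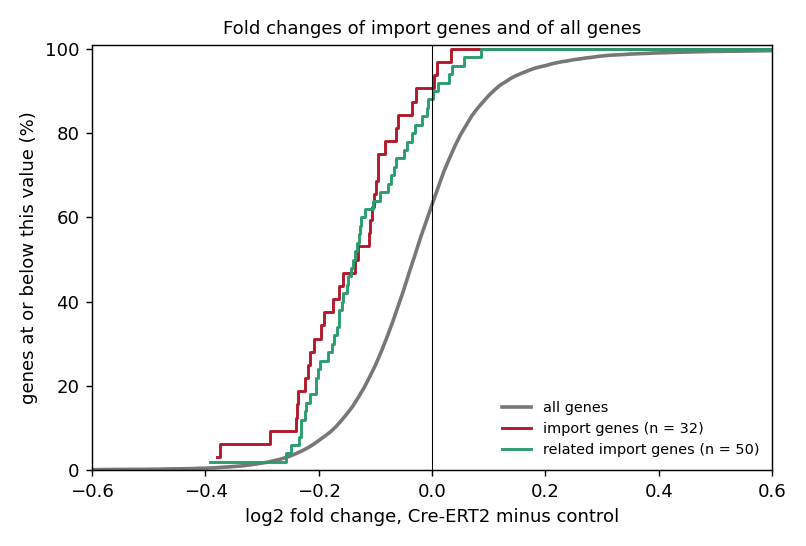
Cumulative share of genes (vertical axis, %) at or below each log2 fold change (horizontal axis, Cre-ERT2 minus control) for the 32 import genes, the 50 related genes and all genes. Both lists lie to the left of all genes, with medians of -0.13 and -0.14 against -0.03, and few of their genes lie beyond -0.3.

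Promoter sequences were read for these genes because most of them shared a direction. From RefSeq's GRCm38.p6 annotation, 28 of the 32 genes had a promoter window, matched by Entrez gene ID, with 30 start sites. The other 4 were Timm21, Tomm40l, Tomm7 and Grpel2. The 250 bases before each start were searched on both strands for 4 short motifs of factors known to act on genes for mitochondrial proteins or on growth genes. The ETS core CCGGAAGT, bound by GABP, was in 7 of 30 windows, against 2.88% of 32851 windows of all genes. The E-box CACGTG, bound by MYC and related factors, was in 5 (6.02% of all windows). The partial NRF1 site GCGCATGC (labelled half-site at its window below) was in 2 (2.26%), and the YY1 core AAGATGGC was in 0 (1.56%). In 46 windows of the related genes, the ETS core was in 5, the E-box in 2, the partial NRF1 site in 5 and the YY1 core in 1. A match of letters is a description of these windows and no test was made. Windows are shown for the called genes Timm8a1 and Chchd4, for Timm23 and Pmpcb, which passed under some settings, and for Timm13, which was not lower. Capitals mark the motifs found, on either strand.

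Timm8a1 (chrX:134541671-134541920, minus strand, E-box in capitals): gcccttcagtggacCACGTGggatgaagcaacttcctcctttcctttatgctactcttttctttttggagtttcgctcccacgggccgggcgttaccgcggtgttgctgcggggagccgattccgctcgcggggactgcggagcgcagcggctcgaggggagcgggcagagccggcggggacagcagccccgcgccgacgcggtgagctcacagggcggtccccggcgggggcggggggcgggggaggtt
Chchd4 (chr6:91473424-91473673, minus strand, none of the 4 motifs found): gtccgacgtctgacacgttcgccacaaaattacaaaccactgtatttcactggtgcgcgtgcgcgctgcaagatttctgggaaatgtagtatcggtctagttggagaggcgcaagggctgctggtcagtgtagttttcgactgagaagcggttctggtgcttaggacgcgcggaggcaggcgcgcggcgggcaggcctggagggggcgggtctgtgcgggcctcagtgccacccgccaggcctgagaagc
Timm23 (chr14:32201892-32202141, minus strand, ETS core in capitals): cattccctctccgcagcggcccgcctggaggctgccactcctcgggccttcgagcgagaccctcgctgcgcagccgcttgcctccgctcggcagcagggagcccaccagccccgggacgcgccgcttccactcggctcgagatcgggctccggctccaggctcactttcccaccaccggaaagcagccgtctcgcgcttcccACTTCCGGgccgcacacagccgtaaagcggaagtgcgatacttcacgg
Pmpcb (chr5:21736910-21737159, plus strand, ETS core in capitals): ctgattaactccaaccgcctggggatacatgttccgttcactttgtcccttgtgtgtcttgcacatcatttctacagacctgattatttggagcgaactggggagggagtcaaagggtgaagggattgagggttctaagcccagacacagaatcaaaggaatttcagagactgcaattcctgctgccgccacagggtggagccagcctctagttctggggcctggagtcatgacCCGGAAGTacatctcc
Timm13 (chr10:80900970-80901219, minus strand, NRF1 half-site in capitals): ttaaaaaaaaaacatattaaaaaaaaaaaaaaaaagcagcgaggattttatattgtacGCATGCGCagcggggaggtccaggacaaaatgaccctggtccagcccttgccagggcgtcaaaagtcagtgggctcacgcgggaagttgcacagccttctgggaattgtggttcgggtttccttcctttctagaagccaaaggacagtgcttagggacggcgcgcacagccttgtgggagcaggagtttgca

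The E-box of Timm8a1 began 236 bases before its start. The other genes with an E-box, Mtx3, Timm9, Tomm20 and Tomm20l, had fold changes from -0.21 to -0.11, and 0 of them passed. The partial NRF1 site was in Timm13 (fold change 0.03) and in Grpel1 (-0.24), and neither passed. The ETS core lay close to the start in Pmpcb (16 bases before it) and Timm23 (48 bases before it). The other genes with that core, Mtx2, Mtx3, Timm29, Timm8a2 and Tomm70a, had fold changes from -0.20 to 0.01 and 0 of them passed. At the threshold used here Pmpcb and Timm23 did not pass either.

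**Figure D4:**
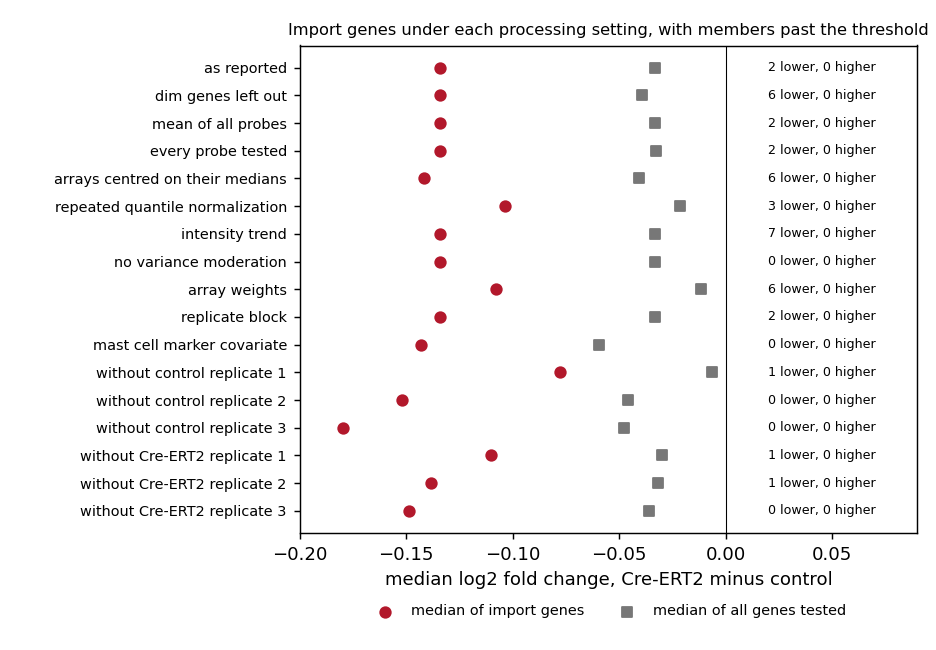
Median log2 fold change (horizontal axis, Cre-ERT2 minus control) of the import genes (red circles) and of all genes tested (grey squares) under each processing setting (rows), with the number of import genes past the threshold at the right. The median of the import genes lay between -0.18 and -0.08 and was below that of all genes in every row, while the calls ranged from 0 to 7 lower with 0 higher. Some rows repeat the same import gene median because those settings leave the fold changes as they were.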

How the data were processed

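Total RNA of 3 control and 3 Cre-ERT2 samples was labelled with biotin for Affymetrix arrays, per the labels' protocols. The authors deposited log2 expression values for 35556 probes. The submitters' processing notes list RMA and Partek 6.5. Filters on probes were not given in the sources used here. Of the probes, 21789 name 1 gene in the platform annotation, 1621 name several and 12146 are unnamed here. The brightest single-gene probe stood for each of 19938 genes.

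A linear model per gene (limma 3.58.1, R 4.3.3, moderated variances) compared the groups. Its p-values were adjusted by Benjamini and Hochberg's method across the 19938 genes, and 0.05 was the threshold. A fold change is the Cre-ERT2 mean minus the control mean of the log2 values. The procedure was tested on simulated data. Separate cultures are not stated by the labels. The p-values then reflect only how these samples vary, possibly for technical reasons, and the small number of arrays limits precision.

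The members and lists were chosen with earlier results of these data known. Named in full were members past the threshold and the 2 with the lowest p in the outer membrane, TIM23, TIM22 and peptidase groups. Array values of Timm17a, Grpel1, Timm10 and Samm50 were given outside this rule, with their values known. The remaining members are given more briefly. Of the related genes, those past the threshold and the 3 with the lowest p are given. Some motor and matrix folding genes were named besides, after their values were seen. Of 55 related entries, 50 were measured outside the symbol rule, 1 of them under an older symbol. Sequences are from RefSeq, and no coordinates of the array probes were used. Alternatives changed the gene filter, probe choice, scaling, variance model, array weights, replicate block, mast cell covariate and left out each array in turn.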

Additional observations from a re-analysis of the deposited data

How the results depend on the processing

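The median of the import genes was negative under all 16 alternatives, and 459 of 510 single values kept their direction and side of the threshold. Much of this was fixed in advance. Leaving out dim genes, testing every probe, an intensity trend, no variance moderation and the replicate block do not change an import gene's fold change. Most import genes did not pass as reported, so keeping their side of the threshold says little. Import genes called lower numbered 2 as reported, 6 with dim genes left out, arrays centred on their medians or array weights, 7 with an intensity trend, and 0 without variance moderation or with the mast cell marker covariate. Related genes called lower numbered 1 as reported, then 9, 7, 13, 9, 0 and 0 under those settings in the same order. Leaving out 1 array gave 0 to 1 for each list. Over all genes, 223 lower and 159 higher calls became 791 and 364 with dim genes left out, 692 and 314 with arrays centred, 334 and 369 after repeated quantile normalization, 821 and 366 with an intensity trend, 1082 and 763 with array weights, 53 and 69 with the covariate, 0 and 0 without variance moderation, and 18 to 111 and 31 to 188 with 1 array left out.

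Reversals fell on 7 import genes, none of them called. Grpel2 was at 0.0075 after repeated quantile normalization, 0.0442 with array weights and -0.0831 to 0.0052 with 1 array left out. Tomm7 was at 0.013, 0.019 and -0.0714 to 0.013 under the same settings. Samm50 was at -0.0037 with arrays centred and -0.0248 to 0.0431 with 1 array left out, and Timm29 at -0.0353 to 0.0804. With the mast cell covariate, Mtx2 was at 0.0688, Mtx3 at 0.0874, Timm13 at -0.12 and Timm29 at -0.11. The cause was not tested.

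Arrays of the same number in the 2 groups deviated together with correlations of 0.27, 0.34 and 0.03 over genes. Arrays of unlike number had correlations from -0.33 to 0.04. Deviations were taken from each group's own mean and so cancel within a group. Positive correlations at the same number therefore partly force negative ones at unlike numbers. Control 3 had nearly equal values with its own number (0.0282) and with Cre-ERT2 1 (0.0304). The labels state no pairs, so the main fit used none, and whether arrays of the same number share an origin was not tested. With the replicate block, 2 import genes (Timm21 and Timm8a1) were called lower, and 285 lower and 296 higher over all genes.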
